A study of Mus musculus with 18 samples.

Results

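The insulin-like growth factor (IGF) genes examined here were 10 genes of the IGF system: the ligands Igf1 and Igf2, the receptors Igf1r and Igf2r, and the binding proteins Igfbp2 to Igfbp7. They were chosen because Igf1 moved in opposite directions in the Chd4 conditional knockout (cKO) and the Fezf2 knockout (KO), and all 10 were found among the 21875 genes shared by the 3 count tables. Libraries came from sorted medullary thymic epithelial cells (mTECs), cells of the thymic medulla that display antigens of other organs to developing T cells. There were 6 groups of 3 libraries. Mice labelled Aire KO and a wild-type (WT) group kept as their control were C57BL/6, as were mice labelled Fezf2 KO and a separate WT group. In the Chd4 comparison the mice were C57BL/6x129P2, and Chd4 flox/flox was present in both groups, with Foxn1-Cre, a recombinase active in thymic epithelium, only in the cKO. The column names call the Fezf2 KO libraries a conditional knockout, which the labels do not. The sources used here do not give age, sex, the deleted exons or whether triplicates were separate animals, so the p values reflect only how far these libraries vary, which may be technical.

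Igf1 and Igf2 are secreted growth factors. Igf1r is the receptor tyrosine kinase that carries their signal into the cell, while Igf2r takes up Igf2 for degradation in lysosomes. Igfbp2 to Igfbp6 bind the ligands in the extracellular space and limit or prolong their action, and Igfbp7 is a related secreted protein that binds them weakly. In the thymus, Igf2 is known as a self-antigen that mTECs and other thymic epithelial cells express, and Igf1 as a growth factor made by several cell types.

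Promoters are shown for 3 members whose windows differ widely in CG content: Igfbp6 and Igfbp3, which both fell in the Aire KO, and Igf1r, which did not pass the test there. Each sequence is the 250 bases before the RefSeq start on GRCm38.p6, read on the strand of the gene, with every CG in capitals. The Igfbp6 stretch is chr15:102143936-102144185 on the plus strand, the Igfbp3 stretch is chr11:7213924-7214173 on the minus strand, and the Igf1r stretch is chr7:67952007-67952256 on the plus strand.
Igfbp6: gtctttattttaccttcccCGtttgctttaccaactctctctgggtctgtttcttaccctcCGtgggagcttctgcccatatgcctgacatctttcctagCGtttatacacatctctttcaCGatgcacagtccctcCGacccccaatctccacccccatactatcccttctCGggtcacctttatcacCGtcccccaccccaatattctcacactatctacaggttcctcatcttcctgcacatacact
Igfbp3: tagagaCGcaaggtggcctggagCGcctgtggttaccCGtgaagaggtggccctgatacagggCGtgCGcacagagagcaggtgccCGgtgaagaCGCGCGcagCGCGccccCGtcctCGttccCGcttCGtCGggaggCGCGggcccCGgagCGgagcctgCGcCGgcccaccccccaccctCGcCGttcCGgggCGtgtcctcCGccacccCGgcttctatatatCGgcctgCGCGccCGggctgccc
Igf1r: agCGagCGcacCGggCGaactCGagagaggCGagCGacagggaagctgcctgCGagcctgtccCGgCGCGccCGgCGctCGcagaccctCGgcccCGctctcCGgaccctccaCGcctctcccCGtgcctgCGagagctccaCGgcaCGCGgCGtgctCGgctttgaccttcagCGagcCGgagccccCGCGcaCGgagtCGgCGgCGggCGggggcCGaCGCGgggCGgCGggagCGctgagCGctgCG
The Igfbp6 stretch holds 7 CG pairs, close to the median of 6 over all 32851 RefSeq windows of this length, of which 92.1% hold at least 1 CG. The Igfbp3 stretch holds 32 and that of Igf1r 42, both above the 75th percentile of 16. All 10 members matched RefSeq, with 14 windows among them. The Igf1 window holds 5 CG pairs and overlaps an annotated exon, so it is not printed. Among the windows of Igf2 the count ranged from 1 to 22. Members that fell in the Aire KO thus include windows poor and rich in CG. The letters TATAAA, searched on both strands, occurred in 2 of the 14 member windows (Igfbp4 and Igfbp6), against 12.4% of all windows.

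Exon reads per library ranged from 3571570 to 17220157, the deepest being Chd4 cKO B. Markers that define mTECs summed to between 15130 and 23936 counts-per-million (CPM) in the libraries, with none of the 15 at 0 in any library. The Fezf2 transcript fell by 5.59 ± 0.41 (SE) on the log2 scale in the Fezf2 KO (adjusted p = 0.000169) and Chd4 fell by 1.14 ± 0.13 in the cKO (adjusted p = 0.000159). The Aire transcript was higher in the libraries labelled Aire KO (log2 difference 0.96, adjusted p = 9.77e-05). Reads over the whole gene do not check that label where the deleted exons are unknown. Outside its own comparison, Fezf2 was higher in the Aire KO (log2 fold change 0.48, edgeR adjusted p = 0.0413). It was also higher in the Chd4 cKO (0.64, adjusted p = 0.000655), where Aire was lower (-0.39, adjusted p = 0.00294). In the Fezf2 KO, Aire (-0.36) and Chd4 (-1.15) lay below WT without overlap but were not called (adjusted p = 0.337 and 0.153). Chd4 was not called in the Aire KO (-0.40). The part of these changes in the IGF results was not tested. One library stood apart before any result. Over all genes tested, the SD of the log2 difference from the mean of the other 2 libraries of its group was 0.967 in WT for Fezf2 B, against 0.388 to 0.655 in the other 17. Results that rest on it are given with and without it. Fewer cells of a type and less RNA per cell cannot be told apart in bulk libraries.

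The Aire comparison set mTECs of mice labelled KO for the transcriptional regulator Aire against those of their own WT group. In mTECs labelled Aire KO both ligands and the binding proteins Igfbp3 and Igfbp6 fell, while Igfbp7 rose. Neither receptor passed the test, nor did Igfbp2, Igfbp4 or Igfbp5. All 10 members passed the low-count filter, and 5 of the 10 were called (edgeR quasi-likelihood test, adjusted p under 0.05), against 15.1% of the 14949 genes tested. By direction, 4 members were lower against 9.37% of all genes and 1 was higher against 5.73%. The median log2 fold change of the members was -0.53, beside 0 over all genes tested.

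Igf1 (chr10:87858265-87937042 on GRCm38) had 149, 159 and 201 CPM in WT for Aire A, B and C, and 51.9, 54.0 and 44.7 CPM in Aire KO A, B and C. Every Aire KO library lay below every WT library, and Igf1 fell by 1.76 ± 0.14 (SE) on the log2 scale, or 3.38-fold (adjusted p = 5.23e-06). Igf2 (chr7:142650766-142666816) had 58, 39 and 53 reads in the WT libraries and 2, 6 and 2 in the Aire KO libraries. Its mean level went from 10.6 ± 1.6 CPM (SD, n = 3) to 0.75 ± 0.47 CPM, and it fell by 3.76 ± 0.50 on the log2 scale (adjusted p = 0.000236). The libraries did not overlap, and with so few reads the size of the Igf2 change is less certain than its direction.

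Igfbp6 (chr15:102144362-102149511), a binding protein that prefers Igf2, had 58.3, 48.0 and 57.9 CPM in the WT libraries and 7.38, 7.50 and 3.31 CPM in the Aire KO libraries. That was a fall of 3.16 ± 0.26 on the log2 scale (adjusted p = 5.69e-06), with all 3 Aire KO libraries below all 3 WT libraries. Igfbp3 (chr11:7206086-7213923), the main carrier of IGFs in blood, went from 18.6, 17.3 and 25.7 CPM to 6.19, 8.15 and 5.91 CPM. The groups did not overlap and the log2 fold change was -1.60 ± 0.28 (adjusted p = 0.00165). In an earlier fit on exon-exon reads, whose values are not given here, the Igfbp3 call was lost. Igfbp7 (chr5:77349240-77408041) went from 12.1, 18.6 and 11.7 CPM to 41.0, 18.6 and 30.7 CPM, so its lowest Aire KO library sat at the level of its highest WT library. The rise of 1.09 ± 0.29 on the log2 scale passed the test (adjusted p = 0.0228). The Igfbp7 call was lost in the fit of all 18 libraries (adjusted p = 0.0518), without WT for Aire A (0.0878), without WT for Aire C (0.0906) and without Aire KO A (0.0948).

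Igfbp5 (chr1:72857932-72874884), a binding protein held in extracellular matrix, had a log2 fold change of -0.69 ± 0.23 that missed the threshold (adjusted p = 0.0611). Values of 53.9, 76.7 and 55.9 CPM in the WT libraries stood against 27.9, 33.7 and 54.4 CPM in the Aire KO libraries, where C reached the WT range. Igfbp5 was called with no filter, with DESeq2 (adjusted p = 0.0413), without Aire KO C (0.00365) and in an earlier fit on unique exon reads whose values are not given here. Igfbp2 (chr1:72824503-72852474, log2 fold change -0.37 ± 0.34) and Igfbp4 (chr11:99041244-99054392, 0.24 ± 0.17) did not pass the test. The receptors Igf1r (chr7:67952827-68233668, 0.19 ± 0.29) and Igf2r (chr17:12682406-12769664, 0.04 ± 0.24) did not pass it either.

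**Figure D1:**
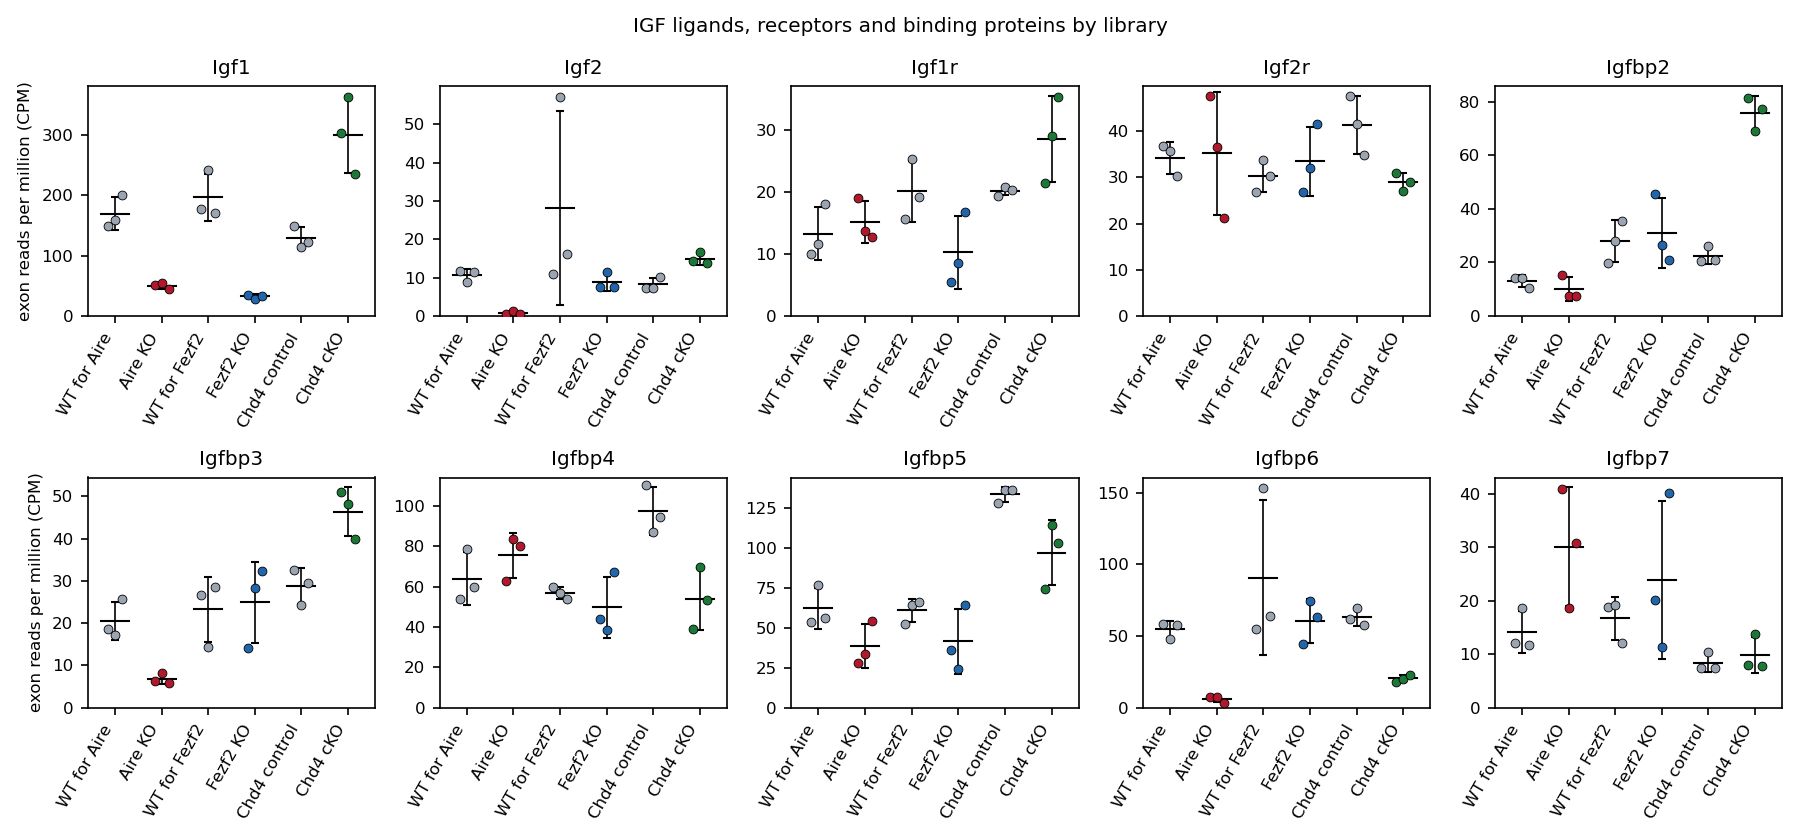
Exon reads (CPM, vertical axes) of the 10 genes in each library, with 3 points per group, the group mean as a line and the SD as error bars. Against its own control group, Igf1 is lower in the Aire KO (44.7 to 54.0 CPM) and Fezf2 KO (29.0 to 35.5 CPM). It is higher than its control in the Chd4 cKO (236 to 363 CPM). Within the Fezf2 comparison, WT for Fezf2 B holds the highest Igf2 and Igfbp6 points.

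Markers of other cells moved in the same comparison. Of 10 macrophage and dendritic cell markers tested, 5 were lower in the Aire KO (Adgre1, Csf1r, C1qa, C1qb and C1qc) and 2 were higher (Cd68 and Zbtb46). Adgre1, a macrophage surface receptor, went from 25.6 ± 7.2 to 0.85 ± 0.29 CPM (adjusted p = 5.69e-06). The summed level of that list ranged from 1171 to 1372 CPM in WT for Aire and from 1180 to 1825 CPM in the Aire KO. In an Aire KO library 2 to 3 of its 14 genes were at 0. Most of the sum was Lyz2, at 891, 1134 and 981 CPM in WT and 1645, 1011 and 1012 CPM in the Aire KO. The sum therefore says little about the other genes of that list. Of 10 fibroblast markers tested, 5 were lower (Pdgfrb, Col1a1, Col1a2, Col3a1 and Col6a3) and 2 higher (Dcn and Lum), and their summed level ranged from 253 to 303 CPM in WT and from 365 to 465 CPM in the Aire KO. Of 12 markers of mTEC-lo and TEC progenitors, 6 were lower (Ccl21a, Krt5, Plet1, Cd44, Ly6a and Krt15) and 0 higher, with sums of 2708 to 4507 CPM in WT and 2091 to 2617 CPM in the Aire KO. Sums were also higher without overlap for mTEC-defining markers (17383 to 19161 and then 23120 to 23936 CPM), cortical TEC (1792 to 1908 and then 2004 to 3136 CPM) and endothelial markers (56.5 to 64.2 and then 81.1 to 114 CPM). Single genes of these lists went both ways. Of 15 mTEC-defining markers, 3 were higher (Aire itself, Cd80 and H2-Aa) and 2 lower (Epcam and Krt5). Of 10 cortical TEC markers, 1 was higher (Tbata) and 2 lower (Dll4 and Enpep). Of 8 endothelial markers tested, 1 was higher (Pecam1) and 0 lower. The part of these cells in the IGF results was not tested.

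The other genes of the pathway were tested in the same fit. They came from lists of 25 signalling genes, 15 extracellular regulators and 15 genes of Igf2 RNA binding and imprinted growth control. Over all genes in that fit, 5.73% were called higher and 9.37% lower. Of 22 signalling genes tested, 5 were higher in the Aire KO and 1 lower, with a list median of 0.14. The highest were Pik3cb, a catalytic subunit of PI3 kinase (log2 fold change 1.24 ± 0.13, adjusted p = 3.59e-05), Tsc1, a brake on mTORC1 (0.74 ± 0.17, adjusted p = 0.00827), Ptpn1, a phosphatase that acts on the insulin and IGF receptors (0.66 ± 0.11, adjusted p = 0.00128) and Insr, the insulin receptor (0.55 ± 0.17, adjusted p = 0.0476). The fall of Grb14, an adaptor that restrains those receptors, was -1.50 ± 0.46 (adjusted p = 0.0435). The calls of Insr and Grb14 were lost when single libraries were left out, and that of Insr also with RLE size factors and in the fit of all 18 libraries (adjusted p up to 0.196 and 0.136 over the alternatives). Of 12 extracellular regulators tested, 2 were lower: the IGF-binding protein Igfbp1 (-2.14 ± 0.59, adjusted p = 0.0267) and the secreted protease Htra3 (-2.78 ± 0.66, adjusted p = 0.0116). Leaving out single libraries took Igfbp1 to an adjusted p of up to 0.0824, and Htra3 to 0.0832 without WT for Aire C.

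Of 13 imprinted or Igf2-related genes tested, 3 were lower in the Aire KO and 1 higher. H19, the non-coding RNA made next to Igf2, had 15, 18 and 27 reads in the WT libraries and 2, 0 and 5 in the Aire KO libraries (log2 fold change -2.93 ± 0.76, adjusted p = 0.0183), a call lost without any one of 4 libraries (adjusted p up to 0.0876). Dlk1, a Delta-like surface protein, went from 21.1 ± 3.6 to 1.41 ± 1.66 CPM (-3.90 ± 0.54, adjusted p = 0.00028). The cell cycle inhibitor Cdkn1c was lower (-0.88 ± 0.24, adjusted p = 0.0256) and Gnas, a G protein subunit, was higher (0.42 ± 0.12, adjusted p = 0.0381), and both calls were lost when single libraries were left out, that of Cdkn1c also with DESeq2 (adjusted p up to 0.128 and 0.13).

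In the Fezf2 comparison the rule itself used Igf1, so the member values are a description, and counts of calls are given only beside those over all genes. Igf1 had 177, 242 and 171 CPM in WT for Fezf2 A, B and C and 35.5, 29.0 and 32.8 CPM in Fezf2 KO A, B and C, a log2 fold change of -2.60 ± 0.22 (SE) or 6.06-fold. Without WT for Fezf2 B it was -2.42 ± 0.13. Igf1 was the only member whose groups did not overlap, 1 of 10 against 27.5% of all 15695 genes. It was also the only one called lower, beside 4.87% of genes called in either direction, 2.48% called higher and 2.40% called lower. Without WT for Fezf2 B, 12.6% of all genes were called. No reading is taken from those counts, since the rule used this contrast.

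The other ligand, Igf2, had 10.9, 57.1 and 16.1 CPM in the WT libraries and 7.51, 11.5 and 7.57 CPM in the Fezf2 KO libraries. One WT library, B, set the mean, and the log2 fold change went from -1.65 ± 0.56 with it to -0.60 ± 0.33 without it. Library B also held 227 reads of H19, against 35 and 25 in the other WT libraries. Igfbp6 behaved alike, with 54.7, 153 and 64.3 CPM in WT and 44.2, 74.3 and 63.3 CPM in the KO. Its log2 fold change was -0.58 ± 0.37 with library B and 0.03 ± 0.20 without it. Igf1r had 15.7, 25.4 and 19.3 CPM in WT and 5.42, 8.64 and 16.7 CPM in the KO, where C overlapped the WT range (-0.98 ± 0.41, or -0.78 ± 0.39 without B).

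The remaining 6 members overlapped between WT for Fezf2 and Fezf2 KO. Their log2 fold changes were 0.14 ± 0.24 for Igf2r, 0.16 ± 0.33 for Igfbp2, 0.10 ± 0.36 for Igfbp3, -0.19 ± 0.24 for Igfbp4, -0.55 ± 0.32 for Igfbp5 and 0.51 ± 0.42 for Igfbp7. With 1 library left out the sign turned for Igfbp3 (to -0.16 without WT for Fezf2 B), Igfbp2 (to -0.23 without Fezf2 KO A), Igf2r (to -0.04 without Fezf2 KO C) and Igfbp7 (to -0.08 without Fezf2 KO C). Of 13 thymocyte markers tested, 8 were lower in the Fezf2 KO, with the summed level falling from 416 to 761 CPM to 203 to 253 CPM, and 0 of 12 macrophage and dendritic cell markers were called. The summed level of the latter was lower without overlap (1127 to 1433 CPM in WT, 794 to 1097 CPM in the KO). Most of that sum was Lyz2, at 921, 1122 and 879 CPM in WT and 772, 579 and 518 CPM in the KO. The sum therefore says little about the other genes of that list. Sums were higher without overlap for cortical TEC (1869 to 2484 and then 3447 to 4093 CPM), endothelial (68.9 to 82.6 and then 93.8 to 155 CPM) and mTEC-defining markers (15130 to 19091 and then 22080 to 23435 CPM). Of the markers tested on these lists, 1 of 10, 0 of 8 and 3 of 15 were called higher, and 0 lower. The fibroblast sum was also higher without overlap (224 to 254 and then 273 to 339 CPM). So was the pericyte and smooth muscle sum (375 to 404 and then 419 to 438 CPM). On those lists 1 of 10 (Lum) and 0 of 7 markers tested were called higher, and 0 lower. The B cell sum was lower without overlap (60.4 to 102 and then 45.9 to 55.9 CPM), with 0 of 5 markers called. The part of these cell types in the member values was not tested.

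In the Fezf2 comparison 2.48% of all genes were called higher and 2.40% lower. Of 23 signalling genes tested there, Irs2, an adaptor of the insulin and IGF receptors, was higher (log2 fold change 0.86 ± 0.19, adjusted p = 0.0331). Grb14 was lower (-1.78 ± 0.35, adjusted p = 0.0178). Of 13 extracellular regulators, Pappa2, a protease that cleaves binding proteins, was lower (-1.40 ± 0.26, adjusted p = 0.016). Of 14 imprinted or Igf2-related genes, Cdkn1c was lower, from 293 ± 66 to 79.1 ± 16.7 CPM (-1.89 ± 0.24, adjusted p = 0.00257). With single libraries left out the calls of Irs2, Grb14 and Pappa2 were lost (adjusted p up to 0.15, 0.103 and 0.0928), and that of Cdkn1c held in the alternatives with values given here.

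**Figure D2:**
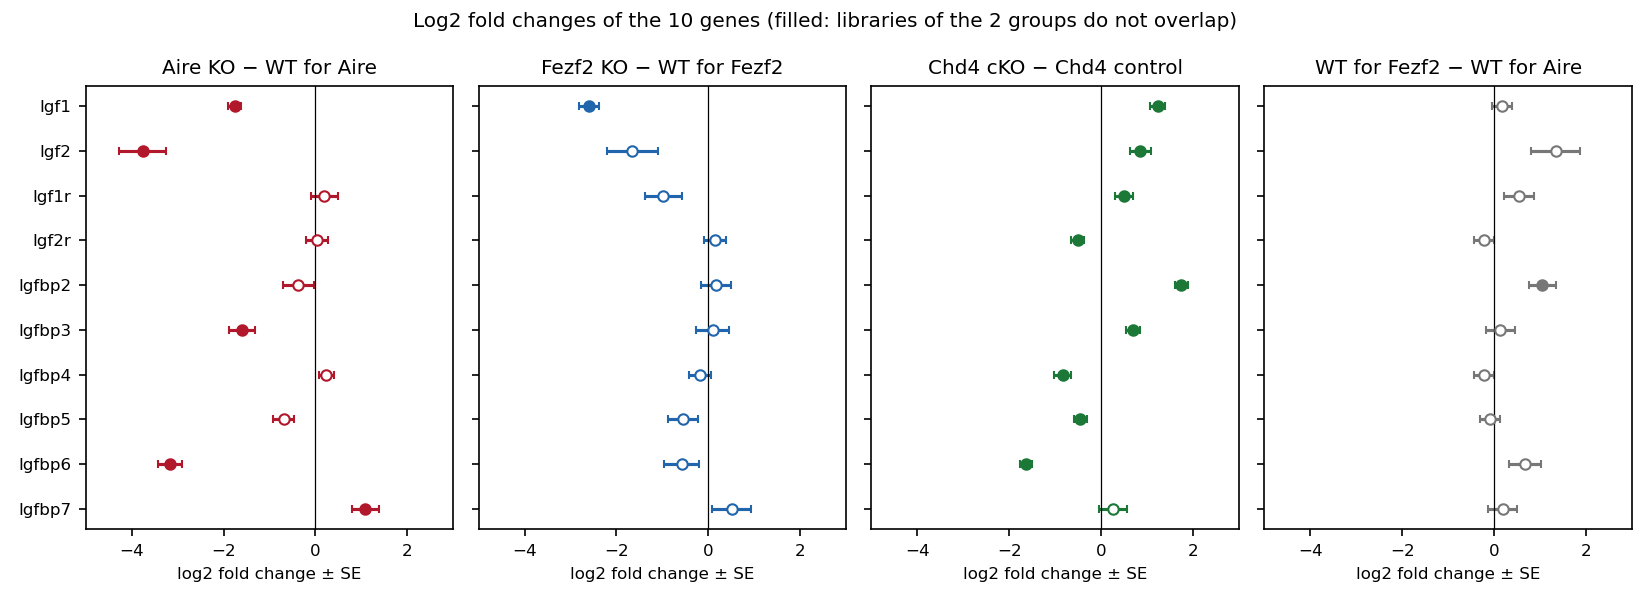
Log2 fold change with its SE (horizontal axis) of the 10 genes in the Aire, Fezf2 and Chd4 comparisons and between the WT groups. Filled points are genes whose libraries do not overlap between the groups compared. Igf1 is left of 0 in the Aire and Fezf2 panels (-1.76 and -2.60) and right of 0 in the Chd4 panel (1.23).

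The Chd4 comparison, in which Chd4, a chromatin remodelling ATPase, was deleted in thymic epithelium, was also used by the rule and is described in the same way. Igf1 had 149, 114 and 123 CPM in Chd4 control A, B and C and 303, 363 and 236 CPM in Chd4 cKO A, B and C, a log2 fold change of 1.23 ± 0.16 or 2.34-fold. Igf2 had 7.31, 7.17 and 10.3 CPM in the controls and 14.2, 16.7 and 13.7 CPM in the cKO (0.85 ± 0.23). Both ligands were thus higher in every cKO library than in every control library.

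The receptors went in different directions in the Chd4 comparison. Igf1r had 19.4, 20.8 and 20.3 CPM in the controls and 21.4, 29.1 and 35.3 CPM in the cKO (0.50 ± 0.19), and cKO A lay close above the controls. Igf2r had 47.5, 41.6 and 34.9 CPM in the controls and 31.1, 27.1 and 28.9 CPM in the cKO (-0.51 ± 0.14).

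Among the binding proteins, Igfbp2 had the largest rise in this comparison, from 20.5, 26.2 and 20.8 CPM to 81.2, 68.9 and 77.1 CPM (log2 fold change 1.74 ± 0.14). Igfbp6 had the largest fall, from 62.2, 69.8 and 57.9 CPM to 18.1, 20.3 and 22.7 CPM (-1.64 ± 0.14). Igfbp4 went from 110, 87.1 and 94.5 CPM to 38.8, 69.7 and 53.1 CPM (-0.84 ± 0.19). Igfbp3 was higher in the cKO (0.70 ± 0.15) and Igfbp5 lower (-0.46 ± 0.14), both without overlap. Igfbp7 overlapped (0.26 ± 0.30) and turned to -0.09 without Chd4 cKO B. In all, 9 of 10 members did not overlap, beside 44.3% of the 15182 genes tested, and 4 were called higher and 4 lower, beside 28.6% of genes called in either direction and 14.3% in each. No reading is taken from those counts.

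Pathway genes outside the members were tested in the Chd4 comparison, where 14.3% of all genes were called in each direction. Of 12 extracellular regulators, 4 were higher and 1 lower. These were Htra1, a secreted protease, from 142 ± 7 to 317 ± 74 CPM (log2 fold change 1.16 ± 0.15, adjusted p = 0.000332), Stc1, a secreted protein that inhibits pappalysins (0.93 ± 0.16, adjusted p = 0.00163), Adam12, a metalloprotease that cleaves binding proteins (0.90 ± 0.17, adjusted p = 0.00267), Pappa2 (0.46 ± 0.13, adjusted p = 0.0244) and, lower, Igfbp1 (-1.27 ± 0.41, adjusted p = 0.039). The Stc1 call was lost in the fit of all 18 libraries (adjusted p = 0.0666). That of Pappa2 was lost in the same fit and with single libraries left out (adjusted p up to 0.107). That of Igfbp1 was kept with RLE size factors and lost in the other alternatives with values given here (adjusted p up to 0.136). Of 9 imprinted or Igf2-related genes tested, 4 were higher and 2 lower. Peg3, an imprinted zinc-finger gene, went from 15.7 ± 3.7 to 67.7 ± 5.1 CPM (2.11 ± 0.16, adjusted p = 1.63e-05), and the amino acid transporter Slc38a4 from 10.8 ± 2.1 to 38.1 ± 1.1 CPM (1.81 ± 0.17, adjusted p = 5.18e-05). Mest (1.47 ± 0.20, adjusted p = 0.000529) and Gnas (0.39 ± 0.08, adjusted p = 0.00569) were also higher. The transcription factor Plagl1 was lower (-1.03 ± 0.10, adjusted p = 7.8e-05), a call lost in an earlier fit on exon-exon reads whose values are not given here. Also lower was Igf2bp1, an Igf2 RNA-binding protein (-1.40 ± 0.36, adjusted p = 0.0155, up to 0.0592 with single libraries left out).

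Of 23 signalling genes tested in the Chd4 comparison, 3 were higher and 1 lower, beside 14.3% of all genes in each direction. Pik3r1, a regulatory subunit of PI3 kinase, had a log2 fold change of 0.68 ± 0.16 (adjusted p = 0.0108), Pik3r2 one of 0.42 ± 0.11 (adjusted p = 0.0151) and the kinase Akt1 one of 0.42 ± 0.10 (adjusted p = 0.00849). Grb10, an adaptor that restrains the IGF receptor, fell by 0.78 ± 0.22 (adjusted p = 0.0221). The fit of all 18 libraries lost the calls of Akt1 (adjusted p = 0.0556), Pik3r2 and Grb10. Leaving out single libraries also lost those of Pik3r2 and Grb10 (adjusted p up to 0.058 and 0.103 over the alternatives). That of Pik3r1 held in the alternatives with values given here. Markers of other cells also moved. Of 7 pericyte and smooth muscle markers, 4 were higher and 0 lower. Of 10 macrophage and dendritic cell markers, 5 were lower and 1 higher (Cd68). The pericyte and smooth muscle sum went from 636 to 813 CPM to 927 to 1404 CPM. The macrophage and dendritic cell sum went from 1252 to 1439 CPM to 729 to 895 CPM. Most of the latter was Lyz2, at 953, 966 and 1153 CPM in the control and 498, 648 and 480 CPM in the cKO. Of 12 markers of mTEC-lo and TEC progenitors, 6 were higher and 4 lower, with sums of 4122 to 4772 CPM in the control and 7033 to 8857 CPM in the cKO. Of 9 tuft cell markers, 5 were lower (Trpm5, Avil, Gnb3, Ltc4s and Chat) and 0 higher, with sums of 464 to 701 CPM and then 301 to 377 CPM. Of 5 endothelial markers tested, 2 were higher and 1 lower. The sum of that list was lower without overlap (70.1 to 81.1 and then 58.0 to 67.6 CPM). Of 6 B cell markers, 1 was higher (Cd79b) and 0 lower, with sums of 69.8 to 80.5 and then 98.9 to 118 CPM. Sums overlapped for fibroblast markers (1 higher and 3 lower of 10), mTEC-defining markers (4 and 4 of 15) and cortical TEC markers (3 and 1 of 10). The part of these cells in the member values was not tested.

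The WT groups, both labelled WT and C57BL/6, show how far the members differ without a knockout. In the comparison of WT for Fezf2 with WT for Aire, 0 of 10 members were called by edgeR, against 0.128% of the 15656 genes tested. Among the members, Igfbp2 and Igf2 had the lowest unadjusted edgeR p (0.005 and 0.0322), and DESeq2 called 0. Igfbp2 had the only groups that did not overlap, 1 of 10 against 20.4% of genes: 14.1, 14.4 and 10.4 CPM in WT for Aire and 19.9, 28.0 and 35.6 CPM in WT for Fezf2 (log2 fold change 1.05 ± 0.30, adjusted p = 0.181). Without WT for Fezf2 B, where 3.93% of all genes were called, Igfbp2 stood at 1.04 ± 0.28 (adjusted p = 0.0628). Igf2 went from 1.34 ± 0.54 to 0.28 ± 0.30 without it, and Igf1 from 0.16 ± 0.22 to -0.02 ± 0.14. Of 13 thymocyte markers, 4 were higher in WT for Fezf2.

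Levels of the members were compared with each other only as CPM per kb of exon length. In WT for Aire the order began with Igfbp6 at 49.2 ± 5.2 (SD, n = 3), followed at a distance by Igf1 at 17.1 ± 2.8, Igfbp4 at 14.5 ± 2.9, Igfbp7 at 11.7 ± 3.2 and Igfbp5 at 10.4 ± 2.1. Neighbours from Igf1 down to Igfbp5 overlapped in range. Below them came Igfbp2 (7.01 ± 1.22) and Igfbp3 (6.55 ± 1.45), which overlapped each other, then Igf2r (3.62 ± 0.37), Igf2 (1.86 ± 0.29) and Igf1r (1.07 ± 0.34), which did not. Igfbp6 also came first in WT for Fezf2 (81.6 ± 48.9), in the Fezf2 KO (54.5 ± 13.7) and in the Chd4 control (56.9 ± 5.4), each time without overlap with the next gene. In the Aire KO Igfbp7 (24.9 ± 9.2) and Igfbp4 (17.1 ± 2.6) led and overlapped. In the Chd4 cKO Igfbp2 (51.9 ± 4.3) led, ahead of Igf1 (30.4 ± 6.4) and Igfbp6 (18.3 ± 2.1) without overlap.

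Summed over the 6 binding proteins, the level was 99.3 ± 2.8 CPM per kb in WT for Aire and 61.5 ± 8.1 in the Aire KO. Igfbp6 made up 49.7 ± 6.5% of it in WT for Aire and 9.01 ± 3.92% in the Aire KO, and Igfbp7 went from 11.7 ± 2.9% to 39.7 ± 10.02%. In the Chd4 groups the sum was 136 ± 7 in the control and 123 ± 6 in the cKO, while its makeup changed. Igfbp6 went from 41.9 ± 2.0% to 14.9 ± 1.5% and Igfbp2 from 11.4 ± 1.2% to 42.4 ± 5.5%. In the Fezf2 groups the sum was 141 ± 49 in WT, where library B is the high one, and 117 ± 19 in the KO, with Igfbp6 at 54.9 ± 13.1% and 46.7 ± 11.1%. These sums are descriptions of the members.

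**Figure D3:**
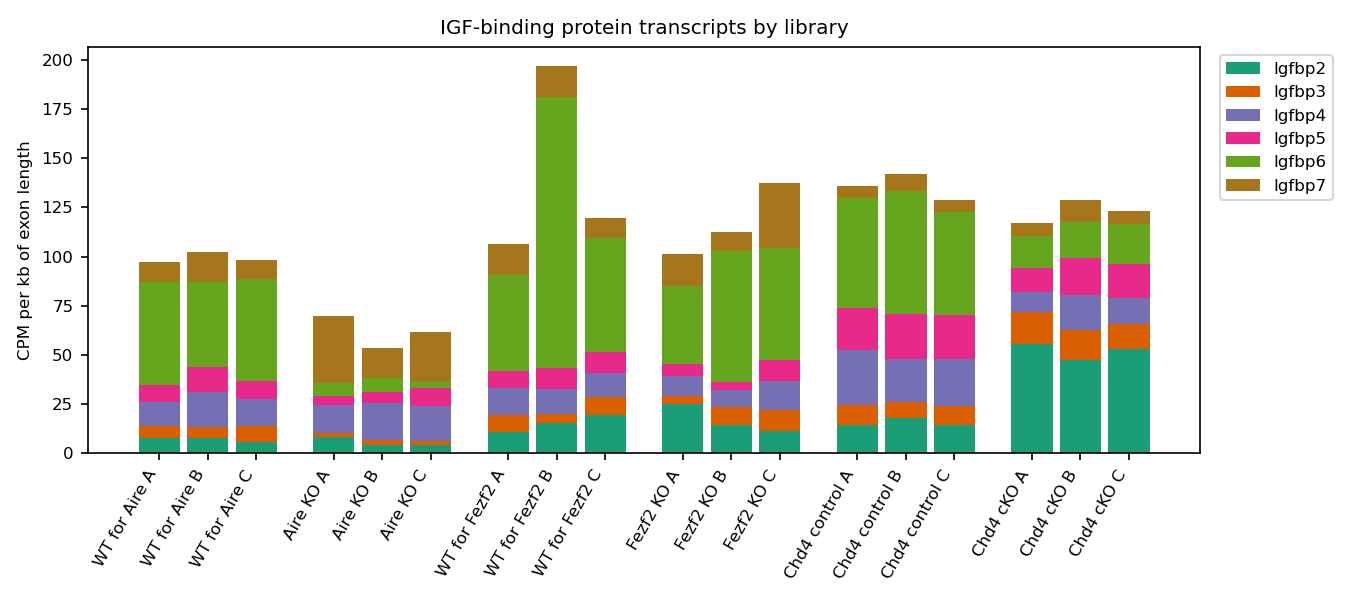
Transcripts of the 6 binding proteins in each library (vertical axis, CPM per kb of exon length), stacked by gene, with libraries grouped by condition. Igfbp6 is about 49.7% of the stack in WT for Aire and 9.01% in the Aire KO, and Igfbp2 is 42.4% in the Chd4 cKO.

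The genes most like Igf1 were those with the smallest root mean square difference from it, over the 18 libraries, of the log2 CPM deviation from the mean of the own control group. Among 13784 genes, 4 of the 5 most like it were Grp (0.558), Cd1d1 (0.568), Apol10b (0.594) and Gstm6 (0.594), where the median over genes was 1.43 and the 1st percentile 0.869. Grp, a neuropeptide gene, had log2 fold changes of -1.49 in the Aire KO, -1.37 in the Fezf2 KO and 0.97 in the Chd4 cKO. For Cd1d1, a lipid-presenting molecule, they were -1.12, -1.67 and 0.94. For Apol10b they were -0.83, -1.87 and 0.72, and for Gstm6 -1.33, -2.41 and 0.29. Gstm6 lay only 0.039 above its control mean in Chd4 cKO C. Its WT for Aire libraries B and C lay at -1.164 and 0.937 from their own mean. These values choose the genes and are given as a description.

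**Figure D4:**
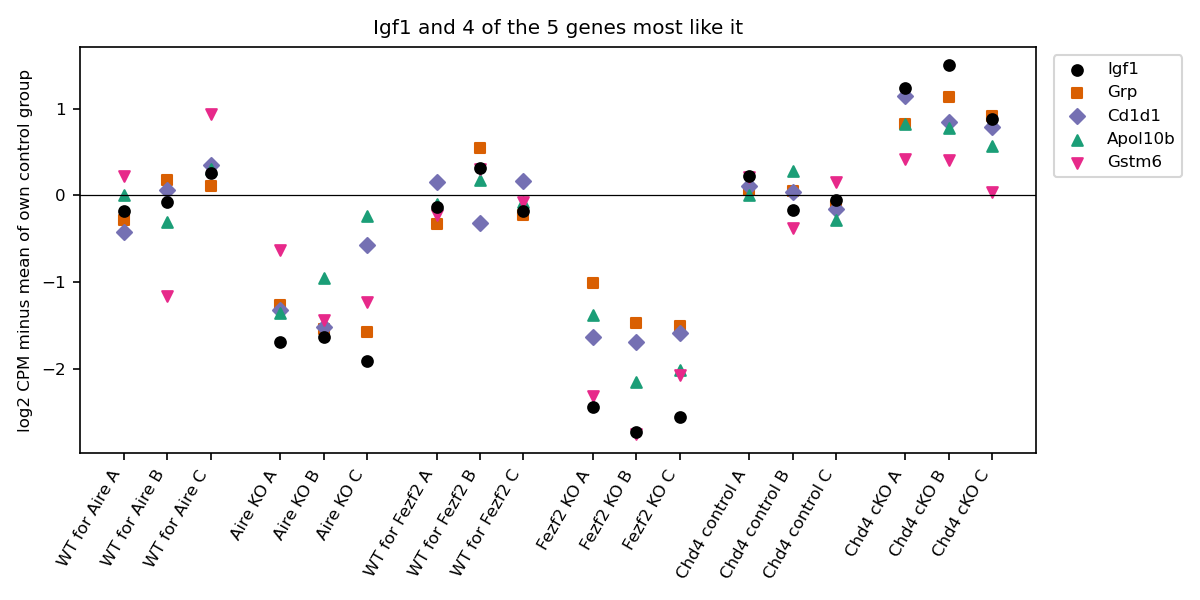
Log2 CPM minus the mean log2 CPM of the own control group (vertical axis) in each of the 18 libraries, for Igf1 and 4 of the 5 genes most like it, with 1 symbol per gene. All 5 genes lie below 0 in every Aire KO and Fezf2 KO library and above 0 in every Chd4 cKO library, which is the pattern they were chosen for.

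Counting affects some members. The Chd4 table uses a different annotation from the Aire and Fezf2 tables, which hold the same gene IDs. Levels of a gene are therefore not compared between the Chd4 table and the others. Igf2r overlaps the antisense gene Airn in the Aire and Fezf2 tables, and Igf1 and Igf2 have antisense partners there. Whether strand was used is not stated in the labels or the file headers, so reads of a gene and of its antisense partner cannot be told apart.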

How the data were processed

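Exon reads were measured by RNA-seq in 18 libraries of sorted mTECs, 3 in each of 6 groups. The authors deposited counts in 1 table per targeted gene, which the file headers call total exon reads. The submitters' processing notes list mm10 and GRCm38 as builds and DESeq2 as a tool. The sources used here do not give the aligner or the use of strand. No replicate number appears in the column names, which hold a group and a barcode. Libraries could therefore be matched only to a group, and are called A, B and C in barcode order. Every value given here comes from total exon reads, and the other 216 per-library columns give none. Fits on unique exon reads, and on exon-exon reads chosen after seeing the data, were made once and then withdrawn, since only 1 measure per column group could be mapped. The calls they changed are named without values. Exon lengths in the deposited tables gave reads per kb.

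A separate fit was made for the 6 libraries of every comparison (R 4.3.3, edgeR 4.0.16), with TMM normalization, filterByExpr and quasi-likelihood F tests. A gene was called where its p, adjusted by Benjamini-Hochberg over all genes tested, was under 0.05. CPM are counts-per-million scaled by TMM, and SEs are the absolute log2 fold change over the root of F. Exon reads per library ranged from 3571570 to 17220157, so 3 reads correspond to 0.174 to 0.84 CPM before TMM scaling. The script was tested on simulated counts. Alternatives were DESeq2 1.42.0, RLE size factors, no filter, 1 fit of all 18 libraries, and each library left out.

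The members, the gene lists and the markers were chosen with earlier results of these data known. The 10 members were taken because Igf1 moved in opposite directions in the Chd4 cKO and the Fezf2 KO, so in those comparisons member values and counts of calls are a description. Named genes were the members, the 5 genes most like Igf1, and, per pathway list, direction and comparison, up to 4 called genes with the largest change. Of the genes most like Igf1, 1 is not reported here. Promoter windows came from RefSeq on GRCm38.p6, and gene positions from the deposited tables, checked against GENCODE M21.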

Additional observations from a re-analysis of the deposited data

Results flagged for a closer look

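Igf1 moved in opposite directions in different knockouts: its log2 fold change was -1.76 in the Aire KO and -2.60 in the Fezf2 KO, and 1.23 in the Chd4 cKO. All 3 knockout libraries lay below all 3 control libraries in the first 2 of these comparisons and above them in the Chd4 cKO. The opposite directions in the Fezf2 KO and the Chd4 cKO are the reason these genes were chosen. Igf2 (-3.76 in the Aire KO, 0.85 in the Chd4 cKO) and Igfbp3 (-1.60 and 0.70) also had libraries that lay wholly below their controls in the one knockout and wholly above them in the other. None of these differences between knockouts was tested. The Chd4 libraries differ from the others in strain, sequencing run and annotation, so knockout and these features cannot be told apart across tables.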

How the results depend on the processing

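No paired analysis was possible because the columns carry no replicate number, so the fit with a replicate block was not run. The planned refit on unique exon reads, and one on exon-exon reads added after seeing the data, were run once and then withdrawn, because only 1 measure per column group could be mapped, so no value of theirs is given. With exon-exon reads the calls of Igfbp3 and Insr in the Aire comparison, of Pappa2 in the Fezf2 comparison and of Plagl1 and Pappa2 in the Chd4 comparison were lost, Igf2 gave no value in the Aire comparison, fewer members were called lower in the Aire and Chd4 comparisons, fewer genes were called in all 4 comparisons, and the signs of Igf2r in the Aire comparison and of Igfbp3 between the WT groups turned. With unique exon reads Igfbp5 was also called in the Aire comparison. What follows is for the other alternatives. In the Aire comparison the members called higher went from 1 to 0 in the fit of all 18 libraries, and leaving out 1 library gave 0 to 1 higher and 4 to 5 lower, against 4. In the Fezf2 comparison the members called lower went from 1 to 2 with no filter, with DESeq2 and in the fit of all 18 libraries, where Igf2 joined Igf1, and stayed at 1 with each library left out. In the Chd4 comparison the fit of all 18 libraries gave 2 higher and 2 lower in place of 4 and 4, and leaving out 1 library gave 3 to 5 higher and 2 to 3 lower. The cause was not tested in any of these. Between the WT groups no member was called under any of these alternatives. With 1 library left out, the log2 fold change of Igf2r in the Aire comparison ranged from -0.226 to 0.309, and between the WT groups that of Igf1 from -0.02 to 0.295, of Igfbp3 from -0.048 to 0.372 and of Igfbp5 from -0.181 to 0.096. Igf2r, Igfbp2, Igfbp3, Igfbp6 and Igfbp7 in the Fezf2 comparison and Igfbp7 in the Chd4 comparison also turned sign with a library left out. Igf1, Igf2, Igfbp3 and Igfbp6 in the Aire comparison stayed called under each of these other alternatives; Igfbp3 did not with exon-exon reads. Depth limits Igf2 most, with 2 to 6 reads in an Aire KO library.

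Counts over all genes moved by over 1.5 times in some alternatives. In the Aire comparison 1401 lower became 2257 with no filter. In the Chd4 comparison 2164 higher and 2175 lower became 1179 and 1196 in the fit of all 18 libraries. In the Fezf2 comparison 389 higher and 376 lower became 1011 and 1158 in the fit of all 18 libraries, 645 and 629 with DESeq2 and 663 and 724 with no filter. With 1 library left out they ranged from 102 to 1053 and from 67 to 981, the highest being those without WT for Fezf2 B. Between the WT groups, 15 higher and 5 lower became 342 and 290, 245 and 138, and 313 and 142 in that order of settings, and ranged from 0 to 312 and from 0 to 324 with 1 library left out.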
